A study of Mus musculus with 6 samples.

Results

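Members of the hypoxia response, 10 genes in all, were examined among the 54752 genes counted in the hippocampus of mice with narrowed carotid arteries. The list was set by name, with earlier results of these data known. It holds the oxygen-regulated transcription factors Hif1a and Epas1, their inhibitors Egln1 and Egln3, and the targets Pdk1, Adm, Bnip3, Ankrd37, Car9 and Ndrg1. All 10 were found by symbol, and each had at least 20 reads in every library, so none was lost to the filter on low counts. Each mate of a pair counted as a read, so the sequenced fragments can be fewer than the reads. The question was whether tissue with reduced blood flow carried a hypoxia signature 3 weeks after surgery. RNA came from the entire right hippocampus of wild-type male mice, of strain C57BL/6 in the labels and C57BL/6 J in the methods. The labels give a time of 14 weeks for every mouse, taken here as age, without saying from when it was counted. The methods describe the mice as adult. In the 3 BCAS mice (bilateral carotid artery stenosis), a microcoil was placed around each common carotid artery, with the tighter coil on the right, the side that was sequenced. The 3 sham mice went through the operation without coils. Each mouse gave 1 library. Histology in the study showed injury of the hippocampus on this side. Because RNA came from bulk tissue, fewer cells of a type and less RNA per cell cannot be told apart.

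Cells sense oxygen through the stability of the alpha subunits of HIF, the hypoxia-inducible factor. When oxygen is present, prolyl hydroxylases of the Egln family mark HIF-1alpha (from Hif1a) and HIF-2alpha (from Epas1) for recognition by the VHL ubiquitin ligase, and the proteins are destroyed. When oxygen falls, the alpha subunits persist, pair with Arnt and bind hypoxia response elements with the core letters ACGTG or GCGTG. In brain, Hif1a is expressed broadly, while Epas1 is known mainly from vessels and astrocytes. Since oxygen acts on the protein, the mRNA of Hif1a is not itself a readout of hypoxia, whereas Egln3, Pdk1, Adm, Bnip3, Ankrd37, Car9 and Ndrg1 are classical HIF target genes, as Egln1 also is.

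Across the 10 genes, Hif1a, Egln3, Pdk1 and Car9 rose in BCAS mice, none fell, and 6 did not pass the test. The test was edgeR's quasi-likelihood test on read counts, with Benjamini-Hochberg adjustment over the 18617 tested genes and a call at an adjusted P under 0.05. Of all tested genes, 18.0% were called higher and 13.2% lower, against 4 and 0 of the 10. For a differentially expressed gene (DEG), an absolute log2 fold change above 1 was required as well. Egln3 and Car9 passed that threshold upwards and no member passed it downwards (8.47% of all tested genes were up-regulated and 0.999% down-regulated DEGs). The median log2 fold change of the 10 genes was 0.33, with values from -0.27 to 1.37, and that of all tested genes was 0.018. In 6 of the 10, the lowest BCAS mouse lay above the highest sham mouse, a pattern seen for 25.3% of all tested genes. For no member did every BCAS mouse lie below every sham mouse, against 22.7% of all tested genes.

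**Figure D1:**
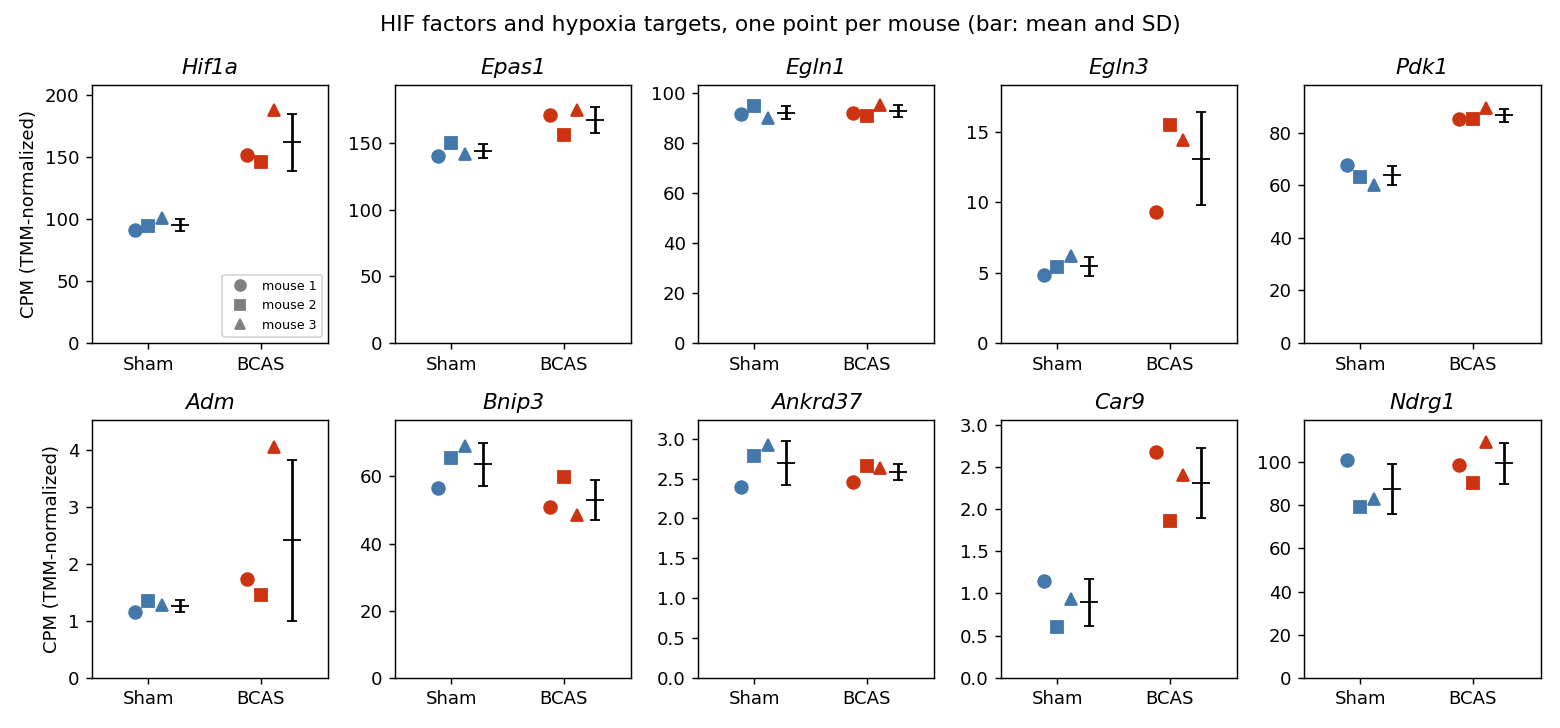
Normalized level of each gene (y axis, CPM on a linear scale from 0) in the 3 sham (blue) and 3 BCAS (red) mice, with the symbol shape giving the mouse number and the black bar the mean and SD. Hif1a, Epas1, Egln3, Pdk1, Adm and Car9 lie higher in BCAS mice without overlap, as did 25.3% of all tested genes. Egln1, Ankrd37, Bnip3 and Ndrg1 overlap, and the Adm mean of 2.41 in BCAS mice rests on mouse 3 at 4.04.

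Promoter sequence is shown because the genes that rose and those that did not carry the same core letters. RefSeq windows (GRCm38.p6, 250 bases before to 50 after the transcription start) were matched for 8 of the 10 genes, and Epas1 and Ndrg1 were not matched. ACGTG or GCGTG, searched on either strand, occurred at least once in a window of all 8 genes. Pdk1 had 2 windows, and its second held no match. Over all genes, 43.77% of the 32851 windows of the same length held a match, a share per window and not per gene. A CACGTG holds an ACGTG on each strand, and these overlapping matches count as 2. The upstream stretch of Egln3, which rose, held 1 match, and that of Bnip3, which did not, held 5. Both are printed 5′ to 3′ on the strand of the gene with the matches in capitals. The Egln3 stretch runs up to the RefSeq start, which lies a few bases before the gene start used for the counts, and the Bnip3 stretch ends at the gene start used for the counts. The Egln3 stretch is chr12:54203875-54204124 (minus strand, 250 bases) and that of Bnip3 chr7:138909520-138909756 (minus strand, 237 bases).
Egln3: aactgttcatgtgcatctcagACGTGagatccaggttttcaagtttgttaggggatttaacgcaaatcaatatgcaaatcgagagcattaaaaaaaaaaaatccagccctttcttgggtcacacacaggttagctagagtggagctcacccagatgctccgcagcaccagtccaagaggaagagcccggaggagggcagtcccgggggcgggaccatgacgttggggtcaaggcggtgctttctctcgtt
Bnip3: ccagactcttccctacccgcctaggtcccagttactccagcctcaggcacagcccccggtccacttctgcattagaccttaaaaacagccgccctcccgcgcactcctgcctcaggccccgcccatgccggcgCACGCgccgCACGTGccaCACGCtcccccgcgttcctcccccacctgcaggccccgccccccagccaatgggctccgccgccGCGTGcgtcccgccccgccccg

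For the other 6 genes with a window, 30 bases around the upstream match nearest to the start are printed, again on the strand of the gene, with that match alone in capitals (CACGT and CACGC are ACGTG and GCGTG read on the opposite strand). Distances are to the RefSeq start, which is not always the gene start in the annotation of the counts given with each gene. By that annotation, the printed stretches of Hif1a, Ankrd37 and Car9 lie inside the gene and that of Egln1 crosses its start. The first base of the match lies 70 bases before the RefSeq start in Hif1a (chr12:73907785-73907814, plus strand), 78 in Pdk1 (chr2:71873134-71873163, plus), 18 in Car9 (chr4:43506996-43507025, plus), 68 in Egln1 (chr8:124949305-124949334, minus), 54 in Adm (chr7:110627591-110627620, plus) and 6 in Ankrd37 (chr8:45999839-45999868, minus).
Hif1a: tggctgagagcaACGTGggctggggtgggg
Pdk1: ccgcctacatggGCGTGtctttaaccaggg
Car9: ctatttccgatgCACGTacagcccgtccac
Egln1: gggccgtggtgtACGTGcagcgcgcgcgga
Adm: ggcaaatctgacCACGCccaccgtccgccc
Ankrd37: cagtgtttgggtACGTGaggccgcagcggg
Hif1a, Pdk1 and Car9 rose and the other 3 were not called, so the letters were present on either side of the test. A match describes the sequence and was not tested for binding.

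Hif1a, the alpha subunit of HIF-1, rose 1.70-fold. The gene (ENSMUSG00000021109.13) lies on the plus strand of chromosome 12 from 73901375 to 73947530 in mm10, the build of the deposited counts. Its normalized level, in CPM (reads scaled by library size), was 91.0, 94.3 and 101 in sham mice 1 to 3 and 151, 146 and 188 in BCAS mice 1 to 3. All BCAS mice were above all sham mice, with mouse 3 the highest. The log2 fold change was 0.76 (standard error 0.10, 95% interval 0.53 to 1.00, edgeR adjusted P = 8.73e-04), and the call held in all 15 alternative analyses, with log2 fold changes from 0.64 to 0.84. Exons of Hif1a share 8.11% of their bases with other annotated genes, and reads there were assigned to neither gene.

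Epas1, the alpha subunit of HIF-2, lies on chromosome 17 (86753700 to 86833410, plus strand, ENSMUSG00000024140.10). It had 140.4, 149.7 and 142 CPM in the sham mice and 171, 156 and 175 CPM in the BCAS mice. The groups did not overlap, yet the distance from sham mouse 2 to BCAS mouse 2 was small beside the SD of 10.1 CPM among BCAS mice. Its log2 fold change of 0.22 (standard error 0.07, 95% interval 0.05 to 0.39) did not pass (edgeR adjusted P = 0.0536). The adjusted P was 0.0268 without BCAS mouse 2, 0.0205 when scaled by library totals alone, 0.0455 with counts divided by 2 and 0.0470 with a covariate for choroid plexus markers, and over all alternatives it ran up to 0.161. Epas1 was thus called in 4 of 15 alternatives. It was not called in the other 11, among them the replicate block and each mouse left out except BCAS mouse 2.

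Hif1a was next set against Epas1 within each mouse. Per exonic length, the log2 ratio of Hif1a to Epas1 was -0.70, -0.74 and -0.57 in the sham mice and -0.25, -0.17 and 0.028 in the BCAS mice. The groups did not overlap, and the means differed by 0.54. An exact two-sided permutation test of this ratio gave P = 0.1, the smallest value that 3 against 3 mice allow. Without BCAS mouse 3 the difference was 0.46.

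Of the 3 remaining HIF subunits, only Arnt passed. Arnt, the shared partner of both factors, had a mean of 34.5 ± 2.73 CPM in sham and 45.7 ± 4.08 CPM in BCAS mice (SD over 3 mice). It rose by 0.41 on the log2 scale (edgeR adjusted P = 0.0138), and it missed the threshold without sham mouse 2 (0.0586) and without sham mouse 3 (0.0612). Arnt2, the partner most abundant in neurons, had a log2 fold change of -0.16 (edgeR adjusted P = 0.200, and 0.0343 without BCAS mouse 2). For Hif3a, another alpha subunit that can oppose the others, the value was 0.37 (edgeR adjusted P = 0.332).

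**Figure D2:**
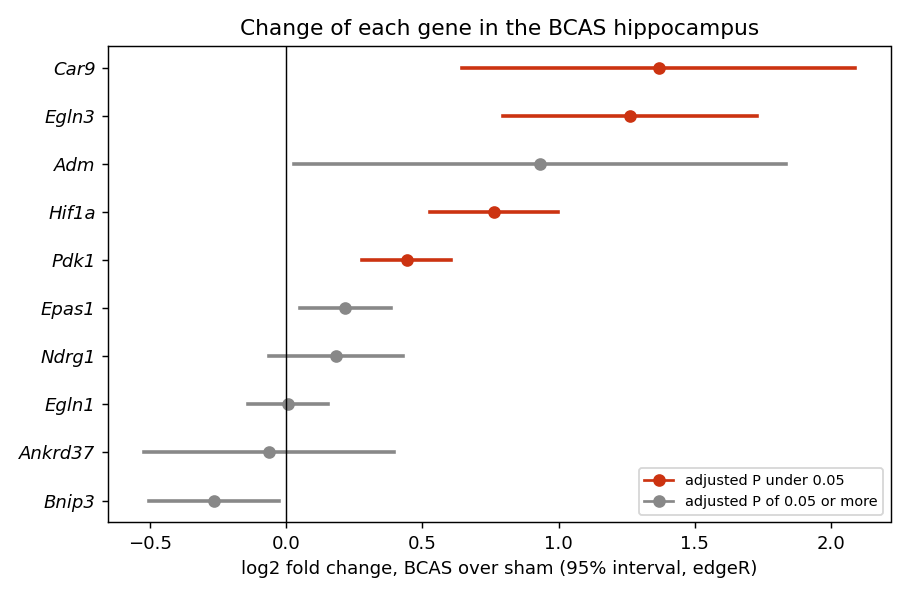
Log2 fold change of BCAS over sham mice (x axis) for each of the 10 genes, with the 95% interval of the edgeR fit as a line and genes past an adjusted P of 0.05 in red. The 4 red genes range from Pdk1 at 0.44 to Car9 at 1.37, and the interval of Egln1 lies closest around 0.

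The prolyl hydroxylases differed from each other. Egln3, an oxygen sensor that is itself strongly induced by HIF, lies on chromosome 12 (54178981 to 54203860, minus strand, ENSMUSG00000035105.5). Its level was 4.81, 5.39 and 6.18 CPM in sham mice 1 to 3 and 9.36, 15.5 and 14.5 CPM in BCAS mice 1 to 3. Every BCAS value exceeded the sham range, with mouse 1 the lowest of the 3. The rise was 2.40-fold (log2 fold change 1.26, standard error 0.21, 95% interval 0.80 to 1.73, edgeR adjusted P = 0.00229), and it was called in all 15 alternatives, where the highest adjusted P was 0.0177.

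Egln1 encodes the main hydroxylase that keeps HIF low in normal oxygen, on chromosome 8 (124908587 to 124949324, minus strand, ENSMUSG00000031987.6). It had 91.8, 95.0 and 89.9 CPM in the sham mice and 91.9, 90.9 and 95.3 CPM in the BCAS mice. The groups overlapped almost fully. Its log2 fold change was 0.0073 (edgeR adjusted P = 0.946), and its 95% interval of -0.14 to 0.15 does not reach the interval of Egln3. The sign of so small a value was not stable, as it was negative with DESeq2, with RLE scaling, and without sham mouse 3 or BCAS mouse 3. Egln2, the hydroxylase next in the family, had a value of -0.11 (edgeR adjusted P = 0.334).

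Of 8 further oxygen sensing genes, which encode hydroxylases and parts of the VHL complex, 4 fell and none rose (all tested genes: 18.0% higher and 13.2% lower). Cul2, the scaffold of the VHL ubiquitin ligase, fell from 75.9 ± 3.03 to 56.7 ± 0.460 CPM (SD, n = 3 mice each; log2 fold change -0.42, edgeR adjusted P = 0.00204). Eloc, an adaptor in the same complex, had a log2 fold change of -0.44 (edgeR adjusted P = 0.00992), and P4htm, a membrane-bound hydroxylase that can act on HIF-1alpha, one of -0.47 (edgeR adjusted P = 0.00430). Rbx1, the RING subunit, was called at -0.23 (edgeR adjusted P = 0.0386) but lost the call in 8 of 15 alternatives, among them those without sham mouse 1, 2 or 3 and without BCAS mouse 1 or 3. Vhl (0.077), Elob (-0.081) and Hif1an (0.037), which encodes the asparagine hydroxylase FIH, were not called. Neuronal markers fell in the same mice (given further on), and their part in these falls was not tested.

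Among the target genes of metabolism and acid balance, Pdk1 and Car9 rose. Pdk1, pyruvate dehydrogenase kinase, diverts pyruvate away from mitochondria. The gene (ENSMUSG00000006494.11, chromosome 2, 71873224 to 71903858, plus strand) had 67.8, 63.2 and 60.3 CPM in sham mice 1 to 3 and 85.3, 85.2 and 89.5 CPM in BCAS mice 1 to 3. The BCAS mice were close together and well above the sham mice. The log2 fold change of 0.44 (standard error 0.07, 95% interval 0.28 to 0.60, edgeR adjusted P = 0.00226) was called in all 15 alternatives and stayed between 0.40 and 0.52. Of its 3 paralogs, 2 were called in the other direction. Pdk2 was called lower at -0.28 (edgeR adjusted P = 0.0350), Pdk3 lower at -0.36 (edgeR adjusted P = 0.0178), and Pdk4 had 0.20 (edgeR adjusted P = 0.197). The calls of Pdk2 and Pdk3 were lost in 7 and 3 of 15 alternatives, for Pdk3 without sham mouse 1 (0.0601), without sham mouse 3 (0.0725) and with a replicate block (0.0567), and for Pdk2 without any one sham mouse or without BCAS mouse 2 or 3.

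Car9, a membrane carbonic anhydrase with a role in the acid balance of hypoxic cells, is near silent in most normal tissue. It was the least abundant of the 10 genes, on chromosome 4 (43506966 to 43513729, plus strand, ENSMUSG00000028463.14). Raw counts were 39, 20 and 32 in the sham mice and 87, 56 and 75 in the BCAS mice, with each mate of a pair counted. In CPM these were 1.15, 0.599 and 0.933 against 2.68, 1.86 and 2.40. No BCAS mouse overlapped a sham mouse. The rise of 2.58-fold (log2 fold change 1.37, standard error 0.32, edgeR adjusted P = 0.0119) had a 95% interval of 0.65 to 2.09. It was called in all 15 alternatives, with a highest adjusted P of 0.0424. Opposite-strand exons of Gm12454 cover 9.29% of its exonic bases.

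Adm encodes adrenomedullin, a vasodilator peptide, on chromosome 7 (110627661 to 110629820, plus strand, ENSMUSG00000030790.15). Its counts were 39, 45 and 44 in the sham mice and 56, 44 and 126 in the BCAS mice, which gave 1.15, 1.35 and 1.28 against 1.72, 1.46 and 4.04 CPM. BCAS mouse 3 stood far above the other two, which lay just over the sham range. The log2 fold change of 0.93 (standard error 0.40, 95% interval 0.03 to 1.83) did not pass (edgeR adjusted P = 0.108). It was 0.33 without BCAS mouse 3 (adjusted P = 0.476), and 1.18 without BCAS mouse 2 (adjusted P = 0.0421). Of the genes for its receptor, Calcrl rose by 0.68 (edgeR adjusted P = 0.00903), and Ramp1 (0.12), Ramp2 (-0.063) and Ramp3 (-0.64, edgeR adjusted P = 0.134) were not called. Ramp3 was called lower without BCAS mouse 3 (-1.08, adjusted P = 0.00996). Ramp2 shares 33.41% of its exonic bases with Vps25, and its value turned to 0.014 with library totals.

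Bnip3, which marks mitochondria for removal by autophagy, lies on chromosome 7 (138890836 to 138909519, minus strand, ENSMUSG00000078566.8). Its mean was lower in BCAS mice. Its level was 56.6, 65.5 and 69.0 CPM in the sham mice and 50.8, 59.8 and 48.4 CPM in the BCAS mice. The groups overlapped through sham mouse 1 and BCAS mouse 2. The log2 fold change of -0.27 (standard error 0.11, 95% interval -0.51 to -0.025) did not pass (edgeR adjusted P = 0.0890), although it did without BCAS mouse 2 (-0.37, adjusted P = 0.0196) and with the choroid plexus covariate (-0.25, adjusted P = 0.0494). Exons of an opposite-strand gene cover 22.25% of Bnip3, where reads were not assigned.

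Ankrd37, an ankyrin-repeat gene used as a sensitive marker of HIF activity, is on chromosome 8 (45996902 to 46005707, minus strand, ENSMUSG00000050914.16). It had 2.39, 2.78 and 2.92 CPM in sham mice and 2.46, 2.65 and 2.63 CPM in BCAS mice, from 80 to 100 reads per library. All BCAS mice lay inside the sham range. The log2 fold change was -0.063 (95% interval -0.52 to 0.40, edgeR adjusted P = 0.843), so a change as large as the 1.26 of Egln3 lies outside its interval. With library totals the sign turned (0.014). Exons shared with Lrp2bp and Ufsp2 make up 26.38% of the gene.

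Ndrg1, a stress-responsive gene that oligodendrocytes also express, lies on chromosome 15 (66929318 to 66969640, minus strand, ENSMUSG00000005125.13). It had 100.9, 79.2 and 83.1 CPM in the sham mice and 98.7, 90.5 and 109 CPM in the BCAS mice. Sham mouse 1 reached into the BCAS range. The log2 fold change of 0.18 (95% interval -0.065 to 0.43) was not called (edgeR adjusted P = 0.239), nor in any of 15 alternatives. Its family did not move in one direction. Ndrg3 fell by 0.65 on the log2 scale (edgeR adjusted P = 0.00279). Ndrg4 was called lower (-0.49, edgeR adjusted P = 0.0336) and Ndrg2, abundant in astrocytes, higher (0.31, edgeR adjusted P = 0.0472). The calls of Ndrg4 and Ndrg2 were lost in 5 and 7 of 15 alternatives, for each of them without any one sham mouse or without BCAS mouse 1, and for Ndrg2 also without BCAS mouse 2.

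Levels per exonic length were compared as RPKM, CPM divided by exonic length in kilobases. In sham mice the order was Bnip3 (28.1 ± 2.83), Epas1 (25.7 ± 0.904), Egln1 (25.7 ± 0.715), Hif1a (16.2 ± 0.837), Ndrg1 (13.3 ± 1.75), Pdk1 (8.20 ± 0.484), Egln3 (2.05 ± 0.258), Ankrd37 (1.75 ± 0.177), Adm (0.778 ± 0.0617) and Car9 (0.388 ± 0.121), each as mean and SD of 3 mice. Among neighbours, the first 3 overlapped each other, as did Egln3 and Ankrd37. In BCAS mice, Hif1a reached 27.5 ± 3.86 RPKM and was second after Epas1 (29.9 ± 1.80), ahead of Egln1 (25.8 ± 0.652) and Bnip3 (23.4 ± 2.65). Each of these 4 overlapped its neighbour in the order. Egln3 at 4.93 ± 1.24 RPKM no longer overlapped Ankrd37 at 1.68 ± 0.0673. Despite its rise, Car9 stayed lowest at 1.00 ± 0.182 RPKM, overlapping Adm at 1.49 ± 0.877.

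**Figure D3:**
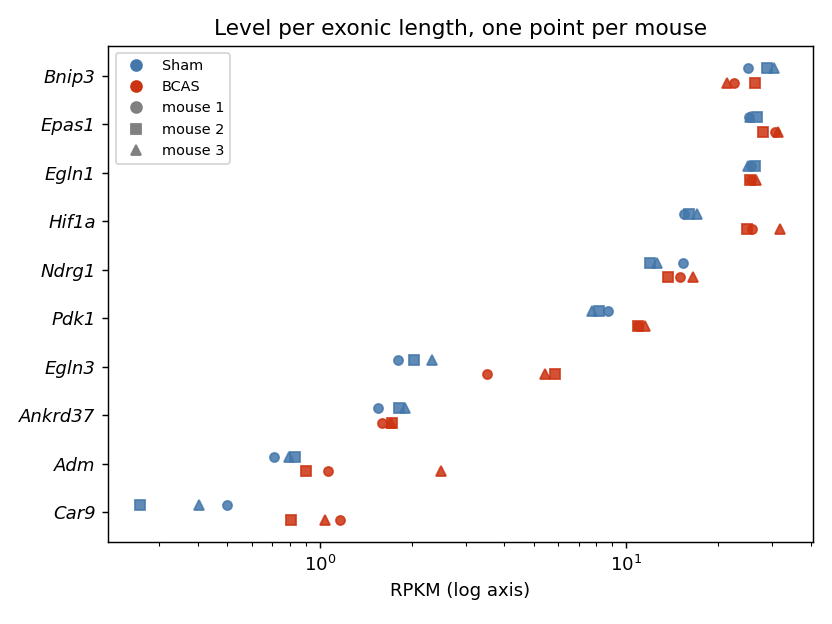
RPKM of each gene on a logarithmic x axis, 1 symbol per mouse, with sham mice in blue and BCAS mice in red, ordered by the sham mean. Hif1a goes from 16.2 in sham mice to 27.5 in BCAS mice, into the range of Epas1, Egln1 and Bnip3, while Car9 and Adm stay at the bottom.

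The highest level of the 6 mice fell in BCAS mouse 3 for 6 of the 10 genes (Hif1a, Epas1, Egln1, Pdk1, Adm and Ndrg1). It fell in BCAS mouse 2 for Egln3, in BCAS mouse 1 for Car9 and in sham mouse 3 for Bnip3 and Ankrd37. The genes that rose did not share 1 extreme mouse, and Egln3 and Car9 ranked the BCAS mice in opposite order.

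A wider list of 76 HIF pathway genes was set beside the 10. Both lists were chosen with earlier results of these data known, so their shares beside those of all genes are descriptive only. Of the 76 genes, 75 were tested. Of these, 23 were called higher and 13 lower, 30.7% and 17.3%, against 18.0% and 13.2% of all tested genes, and 11 were up-regulated and 0 down-regulated DEGs (8.47% and 0.999% of all tested genes). The median log2 fold change was 0.088. The number called lower was 8 without sham mouse 2 and 6 without sham mouse 3, while that over all genes went from 2463 to 1412 and 1260. Targets were 60 of the 75 tested genes, and made up 22 of the 23 called higher (the other was Arnt) and 9 of the 13 called lower. No cofactor passed.

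**Figure D4:**
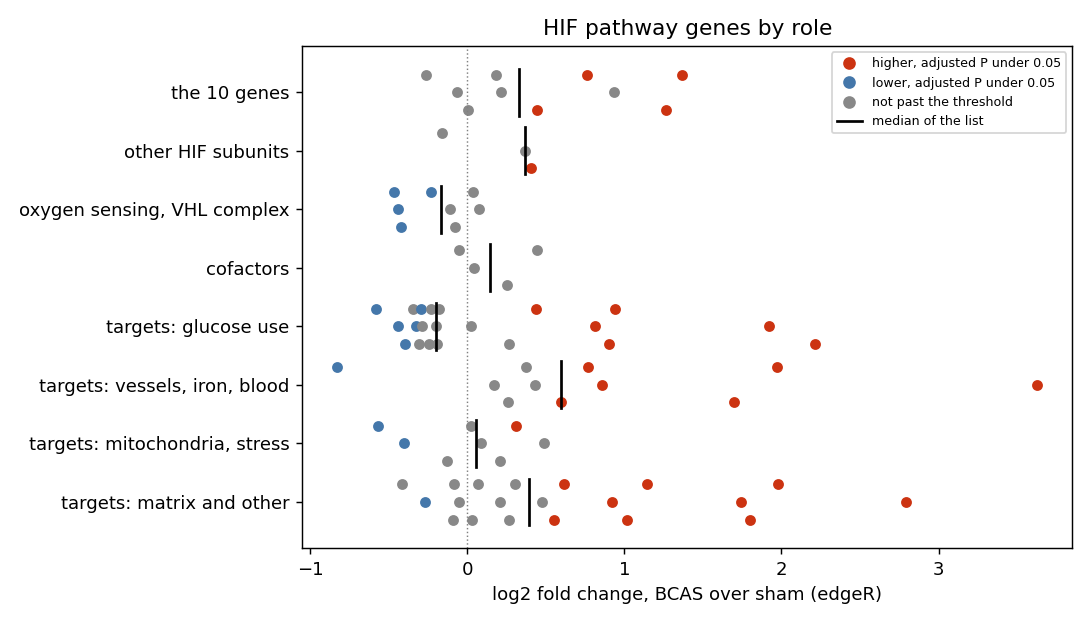
Log2 fold change of BCAS over sham mice (x axis) for HIF pathway genes grouped by role, 1 point per tested gene, red where called higher, blue where called lower and grey where not called, with a black line at the median of each group. Oxygen sensing genes lie mostly left of 0 with a median of -0.17, and the targets of glucose use split into a cluster left of 0 and a tail up to 2.21.

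Among 21 targets in glucose use, 6 rose and 5 fell (28.6% and 23.8%, against 18.0% higher and 13.2% lower among all tested genes), with a median of -0.20. Hk2, the inducible hexokinase, rose 4.64-fold from 6.16 ± 0.492 to 28.6 ± 7.03 CPM (SD, n = 3 mice each; edgeR adjusted P = 5.40e-05). The monocarboxylate transporters Slc16a3 (log2 fold change 1.92) and Slc16a1 (0.81), and the regulators of phosphofructokinase Pfkfb4 (0.94) and Pfkfb3 (0.91), rose with it. Slc2a1, the glucose transporter of the blood-brain barrier, rose by 0.44 (edgeR adjusted P = 0.0139), and missed the threshold without sham mouse 1 (0.0641). The 5 genes that fell encode enzymes of glycolysis. Eno2, the neuronal enolase, fell by 0.58 on the log2 scale (edgeR adjusted P = 0.00616). Aldoa (-0.44), Pfkl (-0.40), Pgam1 (-0.33) and Pgk1 (-0.29) were also called lower. Of these calls, that of Aldoa was lost in 6 of 15 alternatives, that of Pgk1 in 6, that of Pgam1 in 4 and that of Pfkl in 1, the last without sham mouse 3. For Aldoa these included every library left out but BCAS mouse 2. For Pgk1 they were sham mouse 2, sham mouse 3, BCAS mouse 1 and BCAS mouse 3, and for Pgam1 sham mouse 2, sham mouse 3 and BCAS mouse 1. Ldha, which makes lactate, had -0.23 (edgeR adjusted P = 0.135, and 0.0394 without BCAS mouse 2). Reads that aligned to several places, as to processed pseudogenes of these enzymes, were not counted.

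Among 11 tested targets in vessels, iron and blood, 6 rose and 1 fell (54.5% and 9.09%, against 18.0% and 13.2% of all tested genes), with a median of 0.60. Hmox1, which degrades heme, rose 3.93-fold, and Cp, the ferroxidase ceruloplasmin, 3.25-fold. Angptl4 rose by 0.86 on the log2 scale (edgeR adjusted P = 0.0133, and 0.0538 without sham mouse 2), and Flt1, a VEGF receptor, was called at 0.60. Trf, transferrin, was called at 0.77, but it lost the call in 7 of 15 alternatives, including those without any one sham mouse or without BCAS mouse 1 or 3, and shares 63.49% of its exonic bases with another gene. Tfrc, the transferrin receptor, had 144 ± 0.498 CPM in sham and 81.1 ± 4.31 CPM in BCAS mice (SD over 3 mice) and fell by 0.83 on the log2 scale (edgeR adjusted P = 6.28e-05). Vegfa, the best known HIF target in vessels, had 0.17 (standard error 0.08, edgeR adjusted P = 0.113, and 0.0443 with library totals). Epo had 0, 1 and 0 reads in sham mice and 1, 1 and 4 in BCAS mice, so that a difference was not detectable at this depth.

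Of 8 targets in mitochondria and stress, 1 rose and 2 fell (12.5% and 25.0%, beside the same 18.0% and 13.2%). Mxi1, an antagonist of Myc, was called higher (0.31, edgeR adjusted P = 0.0244), and it lost the call without any one sham mouse or without BCAS mouse 2. Ddit4, an inhibitor of mTORC1, fell by 0.57 on the log2 scale (edgeR adjusted P = 0.00284), and Higd1a, a mitochondrial protein induced by hypoxia, fell by 0.40 (edgeR adjusted P = 0.0116, and 0.0526 without sham mouse 3). Among 20 targets in matrix, chromatin and other roles, 9 rose (45.0%, beside 18.0% of all tested genes) and Kdm4b was called lower (-0.27). Kdm4b lost its call in 6 alternatives, among them those without sham mouse 1, 2 or 3 and without BCAS mouse 3. The largest rises were those of Lox (2.79) and Loxl2 (1.98), which crosslink collagen, Anxa2 (1.80), the chemokine receptor Cxcr4 (1.74) and Plod1 (1.14), which hydroxylates collagen. Without BCAS mouse 3, the log2 fold change of Loxl2 was 1.38, and it was still called. Fibroblast and leukocyte genes moved with these, as given next.

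Cell type markers moved in the same libraries, and their part in the changes of HIF genes was not tested. Of 10 markers of microglia and macrophages, all 10 rose, and their summed level was 319 to 333 CPM in sham mice and 1974 to 3198 CPM in BCAS mice, with BCAS mouse 3 the highest. All 6 astrocyte markers rose, with sums of 3554 to 3920 against 8372 to 8997 CPM. Of 7 endothelial markers 4 rose, with sums of 217 to 246 against 282 to 322 CPM, and of 6 mural cell markers 3 rose, with sums of 229 to 274 against 268 to 298 CPM. Of 4 fibroblast markers 3 rose (76.8 to 159 against 158 to 270 CPM), and of 5 T cell markers 4 rose, at sums of at most 6.64 CPM. Neuronal markers went down, 7 of 8 called, from sums of 9343 to 9944 CPM to 4890 to 7152 CPM, with BCAS mouse 3 the lowest. None of the 6 oligodendrocyte markers passed (5092 to 6256 against 5840 to 8796 CPM), and none of 5 erythroid markers did (85.7 to 102 against 106 to 178 CPM). Of 6 markers of hippocampal fields, all were present and Fibcd1, a CA1 marker, fell. Choroid plexus markers, which belong to tissue next to the hippocampus, varied from 70.1 to 4098 CPM among sham mice and from 40.1 to 5943 CPM among BCAS mice, with the lowest sums in sham mouse 3 and BCAS mouse 2. With these sums as a covariate, chosen after seeing the data, Hif1a (0.76), Egln3 (1.28), Pdk1 (0.44) and Car9 (1.34) kept their calls.

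By the shape over the 6 libraries, the genes most like Hif1a among 15630 genes with at least 1 CPM were Tpt1-ps3, Lpp and Gnai2. The measure was the root mean square difference of log2 CPM centred on the sham mean, which was 0.033, 0.035 and 0.037. For Epas1 they were Zbtb2 (0.021), Slc25a20 (0.022) and Trabd (0.027). None of these genes belongs to the pathway lists.

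Library totals ran from 29652456 to 35607098 reads and were lower in each BCAS mouse than in every sham mouse. The mitochondrial share of reads was also lower in each BCAS mouse (6.025 to 6.557%) than in every sham mouse (6.897 to 6.994%). Its part in the changes of HIF genes was not tested. A count of 3 reads corresponded to 0.0875 to 0.0995 CPM, counting error only. The common biological coefficient of variation among mice of a group was 0.161.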

How the data were processed

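The authors trimmed the reads of 6 libraries, aligned them to mm10 with HISAT2 and counted them on exons with featureCounts (version 2.0.3 and GENCODE M20 in the file headers, 1.6.3 and RefSeq genes in the methods). The deposited values are raw counts per gene, in which each mate counted as a read of its own, without regard to strand, and multi-mapped reads were left out. Of 54752 genes, 29 had no symbol. Groups came from the labels. Genes were kept by filterByExpr, scaled by TMM and tested with edgeR 4.0.16 (limma 3.58.1, DESeq2 1.42.0, R 4.3.3) without a block. Library sizes were the totals over kept genes. Intervals used the standard error and degrees of freedom of the fit, and log2 CPM used a prior count of 2. RPKM used the exonic length in the files.

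The members and lists were chosen with earlier results of these data known. Named were the 10 genes, every tested HIF subunit, oxygen sensor and Ndrg, Pdk and adrenomedullin receptor gene, Vegfa, Slc2a1, Ldha and Pgk1, up to 5 called genes per direction of each list (1 of them is not reported here), and the 3 nearest patterns of Hif1a and Epas1. Trf and Ero1l stand for the listed Tf and Ero1a. Of 2 rows for Aldoa the more abundant was used. Alternatives were DESeq2, limma-voom, RLE scaling, library totals, no filter beyond 1 count, a mean of 10 counts, counts divided by 2, a replicate block, each mouse left out and, added later, a choroid plexus covariate. On simulated data for this comparison, edgeR recovered 35.8% of 67 genes changed 1.5-fold, 62.7% of 67 at 2-fold and 84.8% of 66 at 4-fold. The run held 18253 genes and gave 9 false calls. It changed far fewer genes than were called in the real data, so these recoveries need not hold there. The libraries differed from each other beyond sampling noise. They are separate mice according to the study.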

Additional observations from a re-analysis of the deposited data

How the results depend on the processing

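The count of 4 of the 10 genes higher was 4 to 6 over all alternatives that kept the single threshold, and 2 with the added fold change threshold of 1. The count of lower genes was 0, except for 1 (Bnip3) without BCAS mouse 2 and 1 with the choroid plexus covariate, with a leave-one-out range of 0 to 1. Leaving out single mice gave 4 to 6 higher members. Of the other HIF pathway genes, 23 were higher and 13 lower. These counts were 17 to 23 and 6 to 19 with 1 mouse left out, 27 and 10 with library totals, 25 and 16 with the covariate, and 11 and 0 with the fold change threshold. Over all genes the calls were 3356 higher and 2463 lower with TMM, 3859 and 1788 with library totals, 2782 and 1750 with a replicate block, and 2453 to 3554 and 1260 to 3092 with 1 mouse left out. Sharing a replicate number did not make mice deviate together (correlations of residuals 0.036, -0.314 and -0.158). With a replicate block, 4 members were higher and 0 lower, and 22 and 8 other pathway genes. Only sham mouse 1 correlated best with the BCAS mouse of its own number. Signs turned for uncalled genes near 0. Egln1 was -0.011 with DESeq2, -0.0066 with RLE scaling and -0.018 to 0.026 with 1 mouse left out. Ankrd37 was 0.014 and Ramp2 0.014 with library totals. With 1 mouse left out, Hif1an ranged from -0.055 to 0.091 and Elob from -0.15 to 0.029. The ratio of Hif1a to Epas1 differed by 0.46 to 0.60 with 1 mouse left out. The cause of these shifts was not tested. Car9, Adm and Ankrd37 had the fewest reads of the 10 genes, at most 126 per library, and how much counting error adds to their intervals was not tested.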
